A study of Mus musculus with 21 samples.

Results

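Gene expression in dentate gyrus cells of 5-day-old mice exposed to valproic acid (VPA) before birth was compared with that of vehicle-exposed mice of the same age. All animals were C57BL/6 mice carrying Nestin-EGFP, a transgene in which the neural Nestin promoter drives a green fluorescent protein, and the GFP-positive cells had been collected from the dentate gyrus by fluorescence-activated cell sorting. In the VPA_P5 group (3 libraries) the mothers had received 300 mg/kg/day of VPA by mouth on embryonic days 12, 13 and 14. In the Control_P5 group (3 libraries) they had received methylcellulose on the same days. These 6 libraries belong to a set of 21, and the other ages are drawn on only to ask whether the effect of VPA differed between ages. Of the 24322 gene symbols in each table, the 13328 with at least 1 FPKM (fragments per kilobase of transcript scaled to the mapped fragments of its library) in at least 3 of the 6 libraries were compared. The labels do not say whether the libraries came from separate litters, single pups or pools, so the p-values measure the spread between these libraries, which may be technical.

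At this age the dentate gyrus is still being built. Radial stem cells divide, intermediate progenitors pass through, and granule neurons, marked by Prox1, are born in large numbers, while Reln-secreting Cajal-Retzius cells and vessels surround them. VPA inhibits histone deacetylases and is used against epilepsy. Immediate early genes encode short-lived transcription factors and feedback proteins that cells switch on within minutes of growth factor, calcium or stress signals, without new protein synthesis. A separate set of genes for folding secreted proteins in the endoplasmic reticulum (ER) is switched on when unfolded protein builds up there.

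The 6 libraries held between 17251 and 17601 symbols above 0, and 13153 to 13351 at 1 FPKM or more. Their read depth, estimated from the steps between the low values and set to 1 for Control replicate 1, was 0.743, 1.12 and 0.971 in VPA replicates 1 to 3 and 1, 0.75 and 1.14 in Control replicates 1 to 3. The labelled cells carried the markers of the dentate lineage: Prox1 lay between 134 and 166 FPKM, Dcx, a microtubule protein of newborn neurons, between 144 and 158 FPKM, and Nes, the source of the sorting transgene, between 9.89 and 13.4 FPKM. The groups were not alike in sex-linked transcripts, and the labels give no sex. Ddx3y, on the Y chromosome, had 20.3, 19.1 and 20.8 FPKM in VPA libraries, against 0, 0.0129 and 22.02 FPKM in Control libraries. Xist, expressed from an inactive X chromosome, had 1.93, 20.01 and 0.149 FPKM in VPA libraries, against 317, 308 and 2.65 FPKM in Control libraries. Control replicates 1 and 2 therefore lacked the Y-linked transcript that the other 4 libraries held, and values from those 4 libraries alone (3 VPA and 1 Control) are given beside the results as the Y-linked libraries.

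After VPA, 120 genes rose (0.9% of 13328) and 178 fell (1.34%) at an adjusted p of at most 0.05 with limma, 298 in all (2.24%). The changes were mostly below 2-fold: 14 genes rose and 27 fell by more than 1 on the log2 scale, and the median change was 0.63 among those that rose and -0.55 among those that fell. In 19 of the 298 (12 that rose and 7 that fell) every library of 1 group was below 1 FPKM, so that they entered the test only through the group where they were higher, and 108 rises and 171 falls stood without them. Of the 63 list members that fell, 25 were immediate early genes and 9 were genes of the ER chaperone list, and the 25 list members that rose included 3 pericyte, 5 fibroblast and 6 basal lamina and matrix genes. All 298 genes kept their direction in the Y-linked libraries, where the change was a median 0.923 times as large (0.542 to 1.31 times). The direction could not have changed there, because the groups of all 298 genes did not overlap in the 6 libraries. The size of the change there is no separate measure either. Those 4 libraries are also part of the main fit, and the main fit chose the genes. With Ddx3y as a covariate 3 genes rose and 7 fell, and 7 of these 10 were among the 298. The number called depended strongly on single libraries: 3 rose and 29 fell without VPA replicate 2, 4 and 19 without Control replicate 1, 1 and 17 without Control replicate 2, 42 and 65 without VPA replicate 3, 273 and 270 without VPA replicate 1, and 205 and 295 without Control replicate 3. With the small RNA genes left out and each library rescaled to the same sum of the remaining values, 395 rose and 361 fell. Among them were all 292 of the genes called before that are not small RNAs. The omission and the rescaling were not tested apart.

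**Figure D1:**
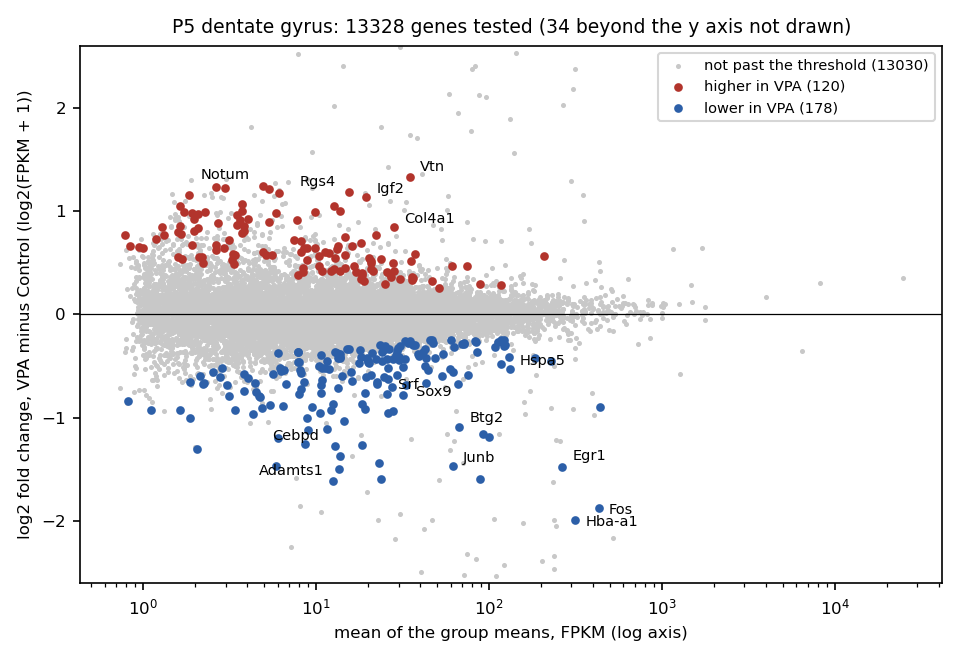
Change of each of the 13328 genes, as the mean log2(FPKM + 1) of VPA_P5 minus that of Control_P5 (y axis), against the mean of the group means in FPKM (x axis, log scale). The 120 genes that rose and 178 that fell are coloured, the leading ones are named, and 34 genes lie beyond the y axis limit of 2.6 and are not drawn.

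The lists described here hold 917 tested genes, of which 25 rose and 63 fell, and each list is read against the share of all tested genes called, 0.9% upward and 1.34% downward, and against the 50.9% of all tested genes that were lower after VPA without any threshold.

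**Figure D2:**
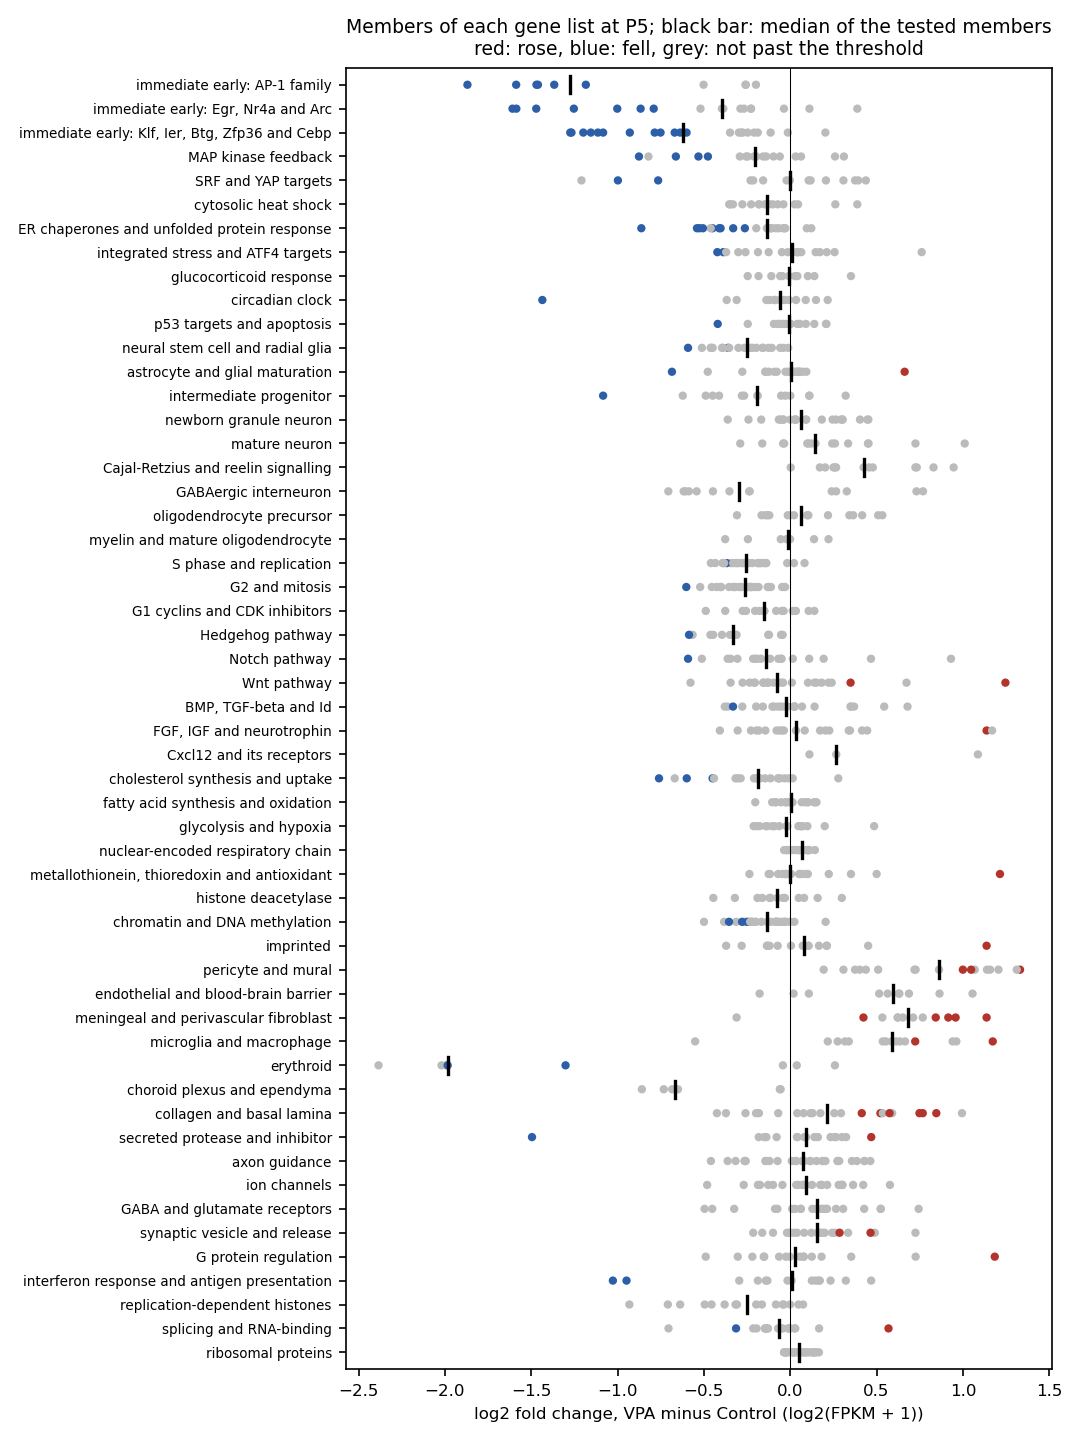
Log2 fold change (VPA_P5 over Control_P5, x axis) of every tested member of the 54 gene lists, one row per list, with members past the threshold coloured and the median marked. The immediate early rows lie to the left of 0, with a median of -1.28 for the AP-1 family, and the pericyte row lies to the right, with a median of 0.86.

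The immediate early genes were lower after VPA as a class. Of 49 tested members of 3 lists, 25 fell (51%) and none rose, 46 were lower, the median log2 fold change was -0.60, and it was -0.61 in the Y-linked libraries. Their summed level was 1205 to 1431 FPKM in VPA and 2466 to 2758 FPKM in Control libraries, and 39 of the 49 did not overlap between the groups, as was the case for 29.4% of all tested genes. The AP-1 family builds the dimeric factor that binds TGANTCA sites, and 6 of its 10 tested members fell (13 were listed), none being higher. Fos, its best known subunit (Ensembl ENSMUSG00000021250.13, chromosome 12, 85473890 to 85477273, mm10), had 148, 188 and 224 FPKM in VPA libraries, against 627, 733 and 669 FPKM in Control libraries. Every VPA library was below every Control library, and the group means were 187 ± 37.6 FPKM in VPA and 676 ± 53.3 FPKM in Control libraries (SD, n = 3 each; limma log2 change -1.87, SE 0.145, adjusted p = 0.00464). Fosb, a second Fos subunit, had 8.99, 11.1 and 14.01 FPKM in VPA libraries, against 37.5, 39.4 and 30.6 FPKM in Control libraries (log2 change -1.59, adjusted p = 0.01). Among the Jun partners, Junb had 26.6, 33.4 and 37.3 FPKM in VPA libraries, against 80.1, 100.3 and 92.6 FPKM in Control libraries (log2 change -1.47, adjusted p = 0.00671). Jun itself had 53.9, 55.9 and 74.7 FPKM in VPA libraries, against 123, 155 and 142 FPKM in Control libraries (log2 change -1.18, adjusted p = 0.0171). In all 3 genes the VPA libraries stood apart from the Control libraries, and VPA replicate 1 was the lowest of its group. Maff, a small Maf protein, and Atf3, a stress-induced factor, also fell, with log2 fold changes of -1.37 (adjusted p = 0.00464) and -1.46 (adjusted p = 0.0341). Fosl2 and Jund missed the threshold with log2 fold changes of -0.50, adjusted p = 0.055, and -0.26, adjusted p = 0.0708.

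The zinc finger and nuclear receptor factors moved the same way, 7 of 17 tested members (19 listed) being lower past the threshold. Egr1, which links neuronal activity to later gene expression (Ensembl ENSMUSG00000038418.7, chromosome 18, 34859823 to 34864984, mm10), had 126, 131 and 165 FPKM in VPA libraries, against 355, 423 and 391 FPKM in Control libraries (limma log2 change -1.47, SE 0.116, adjusted p = 0.00464). Its relative Egr2 had 5.03, 5.64 and 6.21 FPKM in VPA libraries, against 15.05, 23.02 and 20.2 FPKM in Control libraries (log2 change -1.61, adjusted p = 0.00829). The highest VPA library lay below the lowest Control library for both. Of the orphan nuclear receptors, Nr4a1 had 31.1, 45.3 and 57.9 FPKM in VPA libraries, against 122, 143 and 133 FPKM in Control libraries (log2 change -1.59, adjusted p = 0.0195), and within VPA it was lowest in replicate 1 and highest in replicate 3, as was Fos. Egr3, Nr4a2 and Nr4a3 fell by 1.25, 1.002 and 0.87 on the log2 scale (adjusted p 0.0263, 0.0195 and 0.0124). Arc, a synaptic capsid-like protein named after its values were seen, had 2.02, 1.80 and 2.21 FPKM in VPA libraries, against 3.90, 5.24 and 3.59 FPKM in Control libraries (log2 change -0.79, adjusted p = 0.0411). Late-acting synaptic members did not pass: Nptx2, a pentraxin that clusters glutamate receptors, had a log2 fold change of -0.29, adjusted p = 0.119, and Homer1, a postsynaptic scaffold, had one of -0.23, adjusted p = 0.138.

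The third group holds growth-arrest and mRNA-decay factors, and 12 of its 22 tested members fell. Cebpd, a C/EBP factor induced by cytokines and cAMP (Ensembl ENSMUSG00000071637.5, chromosome 16, 15887286 to 15891031, mm10), had 6.67, 7.43 and 7.23 FPKM in VPA libraries, against 18.2, 18.4 and 19.2 FPKM in Control libraries (limma log2 change -1.27, SE 0.0642, adjusted p = 0.000521). Btg2, an antiproliferative gene of progenitors about to make neurons, had 40.6, 41.6 and 46.5 FPKM in VPA libraries, against 87.3, 95.7 and 92.9 FPKM in Control libraries (log2 change -1.08, adjusted p = 0.00152). Ier2, a nuclear immediate early protein, had 55.1, 53.8 and 62.4 FPKM in VPA libraries, against 119, 131 and 135 FPKM in Control libraries (log2 change -1.15, adjusted p = 0.00204). The spread within each group was small beside the gap in these genes, and they are the 3 immediate early genes still called with Ddx3y as a covariate (adjusted p = 0.0146, 0.0433 and 0.0383). The Krüppel-like factors Klf6 and Klf4 fell by 1.27 and 1.20 on the log2 scale, and Nfkbiz, an atypical I-kappa-B protein, by 1.11 (adjusted p 0.00216, 0.0263 and 0.0195). The other 6, which include Zfp36 and Zfp36l1, proteins that destabilise AU-rich mRNAs and are named after their values were seen, fell by 0.60 to 0.93. Zfp36l2 and Btg1 missed the threshold, with log2 fold changes of -0.35, adjusted p = 0.0702, and -0.30, adjusted p = 0.0928. The 25 falls became 10 calls without VPA replicate 2, 11 without Control replicate 1 and 10 without Control replicate 2, each time with fewer libraries in the fit.

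**Figure D3:**
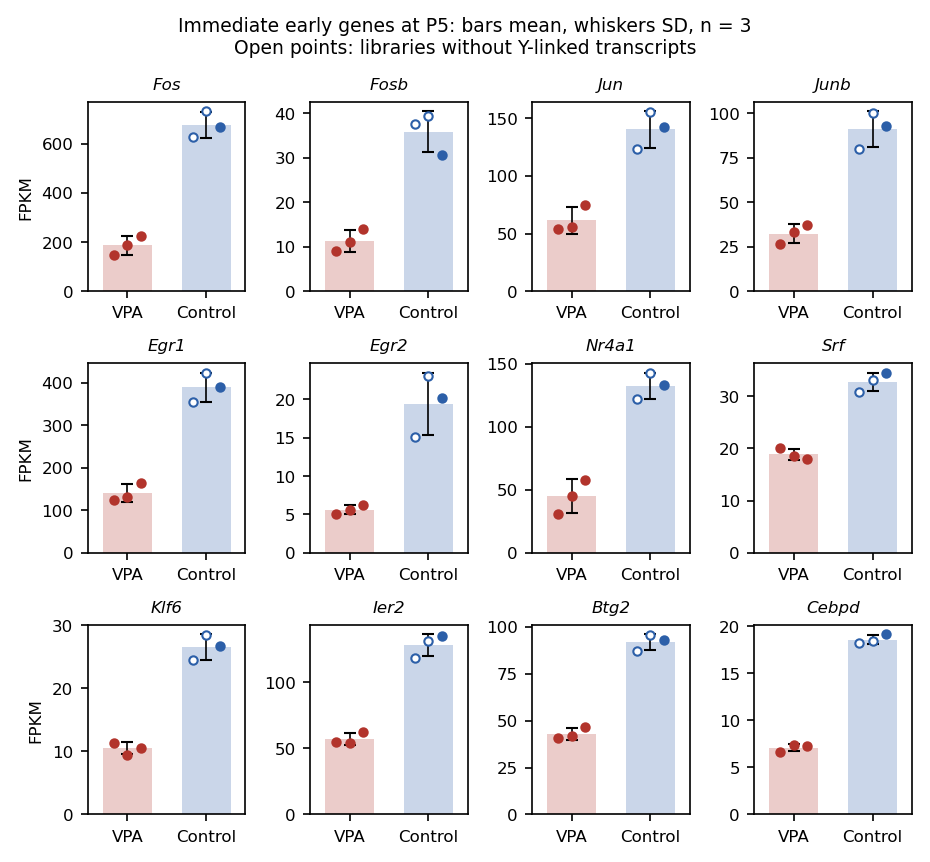
FPKM of 12 immediate early genes in each library (y axis, linear from 0), VPA_P5 left of Control_P5, with bars at the group means, whiskers of 1 SD (n = 3) and open points for the libraries without Y-linked transcripts (Control replicates 1 and 2). In every panel the 3 VPA points lie below the 3 Control points, of which the filled one is Control replicate 3. All 12 genes were called, and no called gene overlapped between the groups, so this placing follows from the choice of genes.

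The promoters of Fos and Btg2 are shown for the cAMP response element, a site through which calcium and cAMP signals reach immediate early genes; that of Btg2 holds the full element and that of Fos only its core. The sequences are the 250 bases before the RefSeq transcription start (GRCm38.p6, which is mm10), with matches to the element TGACGTCA or to its core letters TGACG in capitals. Fos is at chr12:85473640-85473889, plus strand, and Btg2 is at chr1:134079156-134079405, minus strand, each printed 5′ to 3′ on the strand of the gene.
Fos: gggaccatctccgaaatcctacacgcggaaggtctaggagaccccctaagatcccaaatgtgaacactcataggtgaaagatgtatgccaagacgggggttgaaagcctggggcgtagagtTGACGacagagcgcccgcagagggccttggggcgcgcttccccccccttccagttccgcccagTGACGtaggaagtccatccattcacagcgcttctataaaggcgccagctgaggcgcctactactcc
Btg2: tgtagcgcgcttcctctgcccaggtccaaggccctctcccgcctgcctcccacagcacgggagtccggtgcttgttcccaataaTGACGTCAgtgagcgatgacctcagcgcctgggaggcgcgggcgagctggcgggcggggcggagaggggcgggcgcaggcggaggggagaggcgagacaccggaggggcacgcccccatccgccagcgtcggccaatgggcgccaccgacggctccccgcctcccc
Both strands were searched in windows from 250 bases before to 50 bases after the start, and 38 of the 49 tested genes had a window. The full element TGACGTCA was in 3 of the 38 (7.89%: Maff, Plk2 and Btg2) and in 2.03% of 27025 genes with a window. Its core TGACG, which the full element contains and which was chosen after the data were seen, was in 25 of 38 (65.8%), in 14 of the 19 with a window that fell (73.7%), and in 23% of all genes. The core was also frequent in other lists searched. It was in 9 of 20 ER chaperone promoters (45%), in 7 of 14 cholesterol gene promoters (50%) and in 3 of 11 SRF and YAP target promoters (27.3%). TGANTCA, the AP-1 site, was in 4 of 38 (10.5%) and in 8.97% of all genes. The Egr site GCGTGGGCG was in 1 of 38 (2.63%) and in 0.707% of all genes. These are matches of letters in a window and do not show that a factor was bound.

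Genes that limit MAP kinase signalling, and are themselves induced by it, were lower in part. Of 18 tested, 4 fell and none rose, with a median log2 fold change of -0.20. Spry2, an inhibitor of receptor tyrosine kinase signalling, had 49.9, 47.9 and 48.5 FPKM in VPA libraries, against 69.3, 73.1 and 70.6 FPKM in Control libraries (limma log2 change -0.53, SE 0.045, adjusted p = 0.00485). The dual-specificity phosphatases Dusp10, Dusp4 and Dusp1 fell by 0.88, 0.48 and 0.66 on the log2 scale (adjusted p 0.0282, 0.0293 and 0.0418). Etv5, an ETS factor downstream of FGF receptors, missed the threshold at -0.29, adjusted p = 0.0594. There was 1 call in that list without VPA replicate 2, Control replicate 1 or Control replicate 2, and there were 2 without VPA replicate 3. Serum response factor, which drives many immediate early genes, was itself lower: Srf had 20.05, 18.5 and 18.03 FPKM in VPA libraries, against 30.8, 33.03 and 34.3 FPKM in Control libraries (limma log2 change -0.77, SE 0.0643, adjusted p = 0.00485), with no overlap. Among 15 tested SRF and YAP target genes (20 listed) it and Thbs1, a secreted matrix glycoprotein with 0.946, 0.821 and 0.968 FPKM in VPA and 2.81, 3.13 and 2.53 FPKM in Control libraries (log2 change -0.998, adjusted p = 0.0134), were the 2 called, Thbs1 having entered the test only through the Control libraries (1 call without VPA replicate 2 or any one Control library), and the median of that list was 0.00. Cyr61, a YAP target, had 13.2, 24.5 and 27.04 FPKM in VPA libraries, against 48.5, 55.6 and 43.6 FPKM in Control libraries, the groups not overlapping, at -1.21, adjusted p = 0.0563. The CArG box, the site SRF binds, was in 5 of the 11 promoters of that list (45.5%), in 2 of the 38 immediate early promoters (5.26%: Egr2 and Zfp36), and in 1.81% of all genes with a window.

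The chaperones of the ER were lower by smaller amounts. Of 23 tested genes 9 fell and none rose, 21 were lower, the median log2 fold change was -0.14 (-0.20 in the Y-linked libraries), and their summed level was 1135 to 1172 FPKM in VPA and 1419.8 to 1437 FPKM in Control libraries. Hspa5, the main ER chaperone and sensor of unfolded protein (Ensembl ENSMUSG00000026864.13, chromosome 2, 34771970 to 34777547, mm10), had 114, 97.6 and 112 FPKM in VPA libraries, against 152, 159 and 155 FPKM in Control libraries (limma log2 change -0.52, SE 0.0683, adjusted p = 0.0218). Calr, a calcium-storing chaperone of glycoproteins, had 195, 189 and 198 FPKM in VPA libraries, against 260.5, 264 and 272 FPKM in Control libraries (log2 change -0.45, adjusted p = 0.0137). Hsp90b1, the HSP90 of the ER, had 109.9, 109 and 117 FPKM in VPA libraries, against 149, 150.03 and 148 FPKM in Control libraries (log2 change -0.41, adjusted p = 0.0173). No VPA library reached the lowest Control library in these 3 genes. Sdf2l1, which works with Hspa5, and Manf, a secreted ER-resident survival factor, fell by 0.86 and 0.54 on the log2 scale (adjusted p 0.0195 and 0.0292). Xbp1, whose spliced form drives chaperone genes, had 27.9, 23.5 and 27.2 FPKM in VPA libraries, against 42.4, 35.6 and 34.9 FPKM in Control libraries (log2 change -0.51, adjusted p = 0.0483). The disulfide isomerases Pdia4 and Pdia3 and the chaperone Hyou1, named after their values were seen, also fell, by 0.40, 0.26 and 0.33. Canx, the membrane-bound relative of Calr, gave -0.11, adjusted p = 0.243. Without VPA replicate 2 the 9 calls were 1, without VPA replicate 3 they were 3, and without Control replicate 1 or Control replicate 2 they were 0.

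The ER stress element, the site through which unfolded protein signals reach these genes, is shown for the 3 chaperones just described. The capitals mark matches to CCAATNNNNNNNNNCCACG on either strand, in the 250 bases before the RefSeq start (GRCm38.p6), each printed 5′ to 3′ on the strand of the gene. Hspa5 is at chr2:34771840-34772089, plus strand, Hsp90b1 at chr10:86705445-86705694, minus strand, and Calr at chr8:84846932-84847181, minus strand.
Hspa5: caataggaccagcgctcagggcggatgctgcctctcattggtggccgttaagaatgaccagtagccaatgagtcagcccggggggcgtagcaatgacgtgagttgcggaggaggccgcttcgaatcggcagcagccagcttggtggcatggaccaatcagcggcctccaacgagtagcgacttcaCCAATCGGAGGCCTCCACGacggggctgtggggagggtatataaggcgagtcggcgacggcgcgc
Hsp90b1: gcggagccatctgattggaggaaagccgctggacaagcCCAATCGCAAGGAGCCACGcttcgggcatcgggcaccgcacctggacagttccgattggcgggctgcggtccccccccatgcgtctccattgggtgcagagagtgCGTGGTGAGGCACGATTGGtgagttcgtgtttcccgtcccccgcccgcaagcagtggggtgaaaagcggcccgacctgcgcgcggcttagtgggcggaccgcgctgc
Calr: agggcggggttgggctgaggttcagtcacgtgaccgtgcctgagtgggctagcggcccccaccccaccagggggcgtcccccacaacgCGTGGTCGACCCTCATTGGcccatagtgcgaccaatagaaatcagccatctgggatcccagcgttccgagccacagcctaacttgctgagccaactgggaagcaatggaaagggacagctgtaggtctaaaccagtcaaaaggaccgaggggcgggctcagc
The element was in 8 of the 20 ER promoters with a window (40%), in 3 of the 7 of these that fell (42.9%), and in 37 of 27025 genes (0.137%).

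Other stress lists held fewer calls than the ER list. Of 19 tested ATF4 targets and integrated stress genes, 2 fell, Atf4 itself with 156, 171 and 149.5 FPKM in VPA and 213, 206 and 219 FPKM in Control libraries (log2 change -0.42, adjusted p = 0.0325) and Ddit3, its pro-apoptotic partner, with 27.1, 23.4 and 24.01 FPKM in VPA and 33.8, 33.7 and 30.9 FPKM in Control libraries (log2 change -0.39, adjusted p = 0.0451), while the median of the list was 0.01. None of the 16 cytosolic heat shock genes passed the threshold in either direction, and 12 were lower, with a median of -0.13 (-0.22 in the Y-linked libraries), close to that of the ER list. Dnajb1, an HSP70 co-chaperone, had 20.5, 18.9 and 22.8 FPKM in VPA libraries, against 24.97, 27.2 and 26.7 FPKM in Control libraries (log2 change -0.33, adjusted p = 0.0714). Of 16 p53 and apoptosis genes 1 fell: Bcl2l11, a pro-apoptotic BH3-only protein, with 12.6, 11.1 and 11.2 FPKM in VPA and 16.4, 16.1 and 15.1 FPKM in Control libraries (log2 change -0.42, adjusted p = 0.0381). None of 11 glucocorticoid response genes was called. The ATF4 calls numbered 0 without VPA replicate 2, Control replicate 1 or Control replicate 2, and 1 without VPA replicate 3. The clock list had 1 fall in 15, Bhlhe40, an activity-induced repressor, with 10.2, 12.2 and 13.9 FPKM in VPA libraries, against 31.1, 37.9 and 33.9 FPKM in Control libraries (limma log2 change -1.44, SE 0.118, adjusted p = 0.00467).

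Sterol genes that respond to low cell cholesterol were lower in part, 3 of 22 tested falling and 20 being lower (median -0.19). Insig1, which holds the sterol sensor in the ER, had 43.8, 43.2 and 40.5 FPKM in VPA libraries, against 66.6, 69.98 and 58.5 FPKM in Control libraries (limma log2 change -0.60, SE 0.0739, adjusted p = 0.0195). Idi1, an isoprenoid isomerase of the synthesis pathway, had 21.4, 19.7 and 19.4 FPKM in VPA libraries, against 28.97, 28.04 and 26.7 FPKM in Control libraries (log2 change -0.45, adjusted p = 0.0239). The groups did not overlap in Insig1 or Idi1, and Control replicate 3 was the lowest Control library in both, with log2 fold changes of -0.45 and -0.39 in the Y-linked libraries. Hmgcs1, which makes HMG-CoA, had 119.9, 115 and 127 FPKM in VPA libraries, against 151, 152 and 139.7 FPKM in Control libraries (log2 change -0.29, adjusted p = 0.0563). The sterol element TCACNCCAC was in 1 of 14 promoters of the list (7.14%) and in 1.44% of all genes. Without VPA replicate 2, Control replicate 1 or Control replicate 2 no call was left here, and without Control replicate 3 there were 7.

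Stem cell genes lay lower throughout, though few passed the threshold. Of 22 tested markers of neural stem cells and radial glia all 22 were lower after VPA, against 50.9% of all tested genes, with a median log2 fold change of -0.25 and 2 falls. In these bulk samples, fewer cells of a type and less RNA per cell cannot be told apart. Hes1, the Notch effector that keeps progenitors undifferentiated, had 9.92, 10.9 and 12.2 FPKM in VPA libraries, against 15.8, 19.2 and 16.3 FPKM in Control libraries (limma log2 change -0.59, SE 0.0995, adjusted p = 0.0394). Sox2, a core stem cell transcription factor, had 79.9, 68.6 and 76.3 FPKM in VPA libraries, against 93.5, 100.5 and 95.03 FPKM in Control libraries (log2 change -0.36, adjusted p = 0.0462). For both genes the lowest Control library was above the highest VPA library. Hes5, Vim and Nes did not pass, and Nes had 11.1, 9.89 and 10.1 FPKM in VPA libraries, against 13.1, 13.4 and 11.5 FPKM in Control libraries (log2 change -0.27, adjusted p = 0.114). In the Y-linked libraries 17 of the 22 were lower, with a median of -0.19, and no call was left without VPA replicate 2, VPA replicate 3, Control replicate 1 or Control replicate 2. Sox9, a factor of stem cells and astrocytes, had 24.5, 25.9 and 24.8 FPKM in VPA libraries, against 42.5, 43.3 and 37.1 FPKM in Control libraries (limma log2 change -0.69, SE 0.0681, adjusted p = 0.01). In the same astrocyte list Gjb6, the gap junction protein connexin 30, had 1.15, 1.13 and 1.48 FPKM in VPA libraries, against 0.360, 0.390 and 0.513 FPKM in Control libraries (log2 change 0.66, adjusted p = 0.0468), and it entered the test only through the VPA libraries. The remaining 20 astrocyte genes did not pass, among them Gfap, the intermediate filament shared by dentate stem cells and astrocytes, with 80.4, 61.6 and 67.5 FPKM in VPA libraries, against 96.5, 102 and 92.6 FPKM in Control libraries (log2 change -0.48, adjusted p = 0.0563).

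Division genes were mostly lower, with few calls. All 26 tested genes of G2 and mitosis and 27 of 29 of S phase were lower, with medians of -0.26 and -0.26, and 1 fell in each list. Top2a, the topoisomerase that untangles replicated DNA, had 22.2, 17.1 and 19.01 FPKM in VPA libraries, against 31.2, 31.7 and 26.9 FPKM in Control libraries (limma log2 change -0.60, SE 0.105, adjusted p = 0.0415). Cdt1, a licensing factor of replication origins, had 11.01, 11.1 and 12.1 FPKM in VPA libraries, against 15.6, 14.2 and 15.2 FPKM in Control libraries (log2 change -0.37, adjusted p = 0.0441). Mki67, the usual proliferation marker, had 17.9, 13.6 and 14.8 FPKM in VPA libraries, against 21.4, 23.03 and 18.8 FPKM in Control libraries, every VPA library being below every Control library, but did not pass (log2 change -0.43, adjusted p = 0.0895). Neither of these 2 calls was left without VPA replicate 2, VPA replicate 3, Control replicate 1 or Control replicate 2, whereas 6 genes of G2 and mitosis and 4 of S phase were called without VPA replicate 1. None of 16 G1 cyclins and CDK inhibitors and none of 16 replication-dependent histone genes passed.

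Among signalling pathways, all 12 tested Hedgehog genes were lower (median -0.33), and Gas1, a co-receptor for Sonic hedgehog, fell, with 26.4, 21.5 and 22.2 FPKM in VPA libraries, against 40.1, 34.2 and 32.3 FPKM in Control libraries (limma log2 change -0.59, SE 0.104, adjusted p = 0.0423). Gli1, the pathway's transcriptional readout, had 5.29, 4.52 and 5.52 FPKM in VPA libraries, against 9.07, 7.99 and 7.10 FPKM in Control libraries and missed the threshold (log2 change -0.57, adjusted p = 0.0501), as did Ptch1, the Hedgehog receptor (log2 change -0.46, adjusted p = 0.0743). The median of the list was -0.24 in the Y-linked libraries. The Notch list had 1 fall in 18, Hes1. In the Wnt list (24 tested of 33) the 2 genes past the threshold both rose, and both encode secreted proteins. Notum, an enzyme that inactivates Wnt ligands, had 5.96, 8.06 and 8.06 FPKM in VPA libraries, against 2.19, 2.51 and 2.81 FPKM in Control libraries (limma log2 change 1.25, SE 0.131, adjusted p = 0.0127). Dkk3, of the Dickkopf family, had 42.6, 40.2 and 39.3 FPKM in VPA libraries, against 29.5, 32.01 and 33.8 FPKM in Control libraries (log2 change 0.35, adjusted p = 0.0448). Neither Wnt call nor that of Gas1 was left without VPA replicate 2, Control replicate 1 or Control replicate 2, and without VPA replicate 3 there was 1 Wnt call and no Hedgehog call. Tcf7l2, a nuclear effector of Wnt, gave -0.35, adjusted p = 0.0803. Skil, a repressor of TGF-beta signalling, fell (log2 change -0.33, adjusted p = 0.0394), alone among 22 BMP, TGF-beta and Id genes. Rgs4, which shortens G protein signals, had 24.9, 23.7 and 17.6 FPKM in VPA libraries, against 8.41, 8.23 and 10.7 FPKM in Control libraries (limma log2 change 1.18, SE 0.147, adjusted p = 0.0195), and was the 1 gene of 16 in its list past the threshold. Among the 3 tested genes of the Cxcl12 system, which guides cell migration in the dentate gyrus, Cxcl12 had 35.9, 52.4 and 46.8 FPKM in VPA libraries, against 15.5, 18.9 and 28.9 FPKM in Control libraries (log2 change 1.09, adjusted p = 0.0594). Its receptor Cxcr4 had 60.3, 67.1 and 60.7 FPKM in VPA libraries, against 67.4, 53.2 and 54.2 FPKM in Control libraries (log2 change 0.11, adjusted p = 0.522), with overlapping groups.

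Chromatin genes changed little. None of the 13 histone deacetylase genes, the enzyme family that VPA inhibits, passed the threshold. Hdac10 had 24.6, 27.1 and 25.1 FPKM in VPA libraries, against 20.1, 21.7 and 19.95 FPKM in Control libraries (log2 change 0.30, adjusted p = 0.058), and Hdac4 had 4.89, 4.55 and 4.75 FPKM in VPA libraries, against 7.04, 7.47 and 5.96 FPKM in Control libraries (log2 change -0.45, adjusted p = 0.0612). Of 31 genes of chromatin and DNA methylation 29 were lower and 3 fell, all by less than 0.5 on the log2 scale. Arid1a, a subunit of the BAF remodeller, had 44.1, 41.5 and 43.003 FPKM in VPA libraries, against 51.7, 53.7 and 51.2 FPKM in Control libraries (log2 change -0.28, adjusted p = 0.0397). Kdm6b, a histone H3 lysine 27 demethylase, had 41.7, 42.8 and 43.8 FPKM in VPA libraries, against 51.9, 50.6 and 50.4 FPKM in Control libraries (log2 change -0.25, adjusted p = 0.0423). Chd7, a remodeller needed in adult neurogenesis, fell by 0.35 on the log2 scale (adjusted p = 0.0474). None of these 3 calls was left without VPA replicate 2, VPA replicate 3, Control replicate 1 or Control replicate 2.

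Neuronal lists held few calls and were not of 1 direction. Of 21 synaptic vesicle genes 2 rose and 16 were higher: Cplx1 and Cplx2, the complexins that clamp vesicle fusion, had 76.5, 93.3 and 91.1 FPKM in VPA libraries, against 60.2, 61.2 and 66.1 FPKM in Control libraries (log2 change 0.47, adjusted p = 0.0431) for Cplx1 and 125, 133 and 131 FPKM in VPA libraries, against 108, 102 and 108 FPKM in Control libraries (log2 change 0.29, adjusted p = 0.0411) for Cplx2. Neither was called without VPA replicate 2, VPA replicate 3, Control replicate 1 or Control replicate 2. No gene passed among 15 mature neuron genes, 22 newborn granule neuron genes, 22 receptors for GABA and glutamate, 25 ion channels, 30 axon guidance genes or 14 interneuron genes. The interneuron list had 9 genes lower, with a median of -0.29 (-0.66 in the Y-linked libraries), while the other 5 lists had more genes higher than lower. Of the newborn granule neuron genes 15 were higher, with a median of 0.06, but in the Y-linked libraries 9 were higher and 13 lower, with a median of -0.02. Within these lists Snhg11, a neuronal noncoding RNA, had 40.96, 49.3 and 38.4 FPKM in VPA libraries, against 15.4, 20.2 and 28.1 FPKM in Control libraries (log2 change 1.01, adjusted p = 0.0541), with no overlap between the groups. Syt1, the calcium sensor of vesicle release, had 13.01, 18.7 and 16.1 FPKM in VPA libraries, against 7.23, 8.80 and 11.9 FPKM in Control libraries (log2 change 0.73, adjusted p = 0.0837), and Control replicate 3 was closer to the VPA libraries than the other Control libraries were, giving a log2 fold change of 0.37 in the Y-linked libraries. Newborn neuron genes were near parity, Dcx having 149.7, 144 and 152 FPKM in VPA libraries, against 157, 152 and 158 FPKM in Control libraries (log2 change -0.07, adjusted p = 0.425). All 13 Cajal-Retzius and reelin signalling genes were higher, with a median of 0.42 and a summed level of 785 to 852 FPKM in VPA and 650.4 to 710.2 FPKM in Control libraries, and none passed. Reln, the secreted glycoprotein that positions granule cells and is named after its values were seen, had 55.02, 75.8 and 69.7 FPKM in VPA libraries, against 24.6, 39.99 and 50.5 FPKM in Control libraries (log2 change 0.83, adjusted p = 0.11). Trp73, a p53 relative needed for Cajal-Retzius cell survival and likewise named after its values were seen, had 12.6, 13.04 and 11.8 FPKM in VPA libraries, against 3.78, 6.16 and 9.03 FPKM in Control libraries (log2 change 0.95, adjusted p = 0.0817). Control replicate 1 was the lowest and Control replicate 3 the highest Control library for both. Of 15 intermediate progenitor genes Btg2 alone fell, and Neurog2, a proneural factor, had 30.5, 21.03 and 26.9 FPKM in VPA libraries, against 44.2, 38.9 and 38.2 FPKM in Control libraries (log2 change -0.62, adjusted p = 0.0594).

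Genes of vessel walls and their surroundings stood among the largest rises. All 17 tested pericyte and mural genes (18 listed) were higher after VPA, 3 rose, the median log2 fold change was 0.86 (0.89 in the Y-linked libraries), and the summed level was 237 to 418 FPKM in VPA and 165 to 191 FPKM in Control libraries. Vtn, vitronectin, a secreted adhesion protein made by brain pericytes (Ensembl ENSMUSG00000017344.4, chromosome 11, 78499091 to 78502324, mm10), had 57.3, 53.96 and 39.7 FPKM in VPA libraries, against 20.1, 16.6 and 21.1 FPKM in Control libraries (limma log2 change 1.33, SE 0.148, adjusted p = 0.0145). Pdgfrb, the receptor through which pericytes are recruited, had 23.7, 19.1 and 13.99 FPKM in VPA libraries, against 9.12, 8.63 and 8.56 FPKM in Control libraries (log2 change 0.9998, adjusted p = 0.0381). Mcam, a mural adhesion molecule, had 22.4, 17.2 and 12.9 FPKM in VPA libraries, against 7.66, 7.75 and 7.89 FPKM in Control libraries (log2 change 1.05, adjusted p = 0.0366). The groups did not overlap, and within VPA all 3 genes were highest in replicate 1 and lowest in replicate 3, the reverse of Fos in the same libraries. Anpep, Atp13a5 and Abcc9 had changes of about the same size but missed the threshold, at 1.14, adjusted p = 0.0513, at 1.21, adjusted p = 0.0541, and at 1.07, adjusted p = 0.0596. Without VPA replicate 3 there were 9 pericyte calls, and without VPA replicate 2, Control replicate 1 or Control replicate 2 there were none.

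Other non-neural markers moved with them. Fibroblast genes of the meninges and perivascular space had 5 rises in 12 tested (18 listed), a median of 0.68 and a summed level of 135 to 152 FPKM in VPA and 87.7 to 101 FPKM in Control libraries. Igf2, a growth factor of meninges and vessels, had 33.3, 24.6 and 23.9 FPKM in VPA libraries, against 11.9, 10.9 and 12.4 FPKM in Control libraries (limma log2 change 1.14, SE 0.126, adjusted p = 0.0145). Col1a2, a fibrillar collagen chain, had 4.85, 4.75 and 5.43 FPKM in VPA libraries, against 1.68, 2.24 and 2.71 FPKM in Control libraries (log2 change 0.92, adjusted p = 0.0293). Foxc1, Col3a1 and Islr, a meningeal transcription factor, a collagen chain and a secreted leucine-rich protein, rose by 0.84, 0.96 and 0.42 on the log2 scale (adjusted p 0.0411, 0.0452 and 0.0472), and Foxc1 entered the test only through the VPA libraries. Microglia and macrophage genes had 2 rises in 15 tested (20 listed), Pf4, a chemokine of border macrophages, with 9.10, 11.2 and 6.28 FPKM in VPA and 3.22, 2.96 and 3.70 FPKM in Control libraries (log2 change 1.17, adjusted p = 0.0341), and Laptm5, a lysosomal protein of blood cells (log2 change 0.72, adjusted p = 0.0472), and a summed level of 71.5 to 108 FPKM in VPA and 59.9 to 67.4 FPKM in Control libraries. The microglial markers Tmem119, Aif1, Trem2 and Ptprc missed the filter of 1 FPKM in 3 libraries. Aif1 (1.71 and 1.25 FPKM) and Trem2 (1.56 and 1.77 FPKM) passed 1 FPKM in VPA replicates 1 and 2, and Tmem119 (1.29 FPKM) in VPA replicate 3. Of 21 listed endothelial genes 10 were tested and none passed, 9 being higher (median 0.60, summed level 314 to 325 FPKM in VPA and 275 to 291 FPKM in Control libraries), and Pecam1, Cdh5, Flt1, Kdr, Tek and Tie1, which define these cells, missed the filter. At those low values, each was higher in every VPA library than in every Control library. The other listed endothelial genes that missed the filter had overlapping groups. The 5 fibroblast calls numbered 2 without VPA replicate 1, 1 without VPA replicate 2 or VPA replicate 3, and none was left without Control replicate 1 or Control replicate 2. The 2 macrophage calls numbered 1 without VPA replicate 1 or VPA replicate 3, 0 without VPA replicate 2, Control replicate 1 or Control replicate 2, and 3 without Control replicate 3. The summed levels of pericyte, fibroblast and macrophage markers did not overlap between the groups. The same was true of many other lists, among them the endothelial, stem cell, synaptic vesicle and chromatin lists, so it does not set these cell types apart. The part of pericyte, fibroblast and macrophage markers in the other results was not tested.

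Red cell genes went the other way. Of 9 tested erythroid genes (15 listed) 2 fell, the median was -1.98, and the summed level was 254 to 786 FPKM in VPA and 1409 to 1829.8 FPKM in Control libraries. Hba-a1, an adult alpha-globin gene with a near-identical neighbour, had 163, 162 and 71.3 FPKM in VPA libraries, against 425, 608 and 459 FPKM in Control libraries (limma log2 change -1.98, SE 0.318, adjusted p = 0.0354). Alas2, the first enzyme of heme synthesis in red cells, had 1.20, 0.949 and 0.229 FPKM in VPA libraries, against 2.602, 3.99 and 3.38 FPKM in Control libraries (log2 change -1.30, adjusted p = 0.0438). VPA replicate 3 was the lowest library for both, and the groups did not overlap. The 2 calls were lost without VPA replicate 2, Control replicate 1 or Control replicate 2, and numbered 3 without VPA replicate 1 or VPA replicate 3. The beta-globin genes missed the threshold, Hbb-b1 with 182, 124 and 32.3 FPKM in VPA libraries, against 309, 419.7 and 364 FPKM in Control libraries (log2 change -1.99, adjusted p = 0.103). All 6 tested choroid plexus and ependyma genes (14 listed) were lower with a median of -0.67, and none passed. In the Y-linked libraries 4 were lower and 2 higher, with a median of -0.58. The summed level of the list overlapped between the groups, at 37.6 to 102 FPKM in VPA and 52.1 to 73.7 FPKM in Control libraries, and VPA replicate 1 was the highest library.

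**Figure D4:**
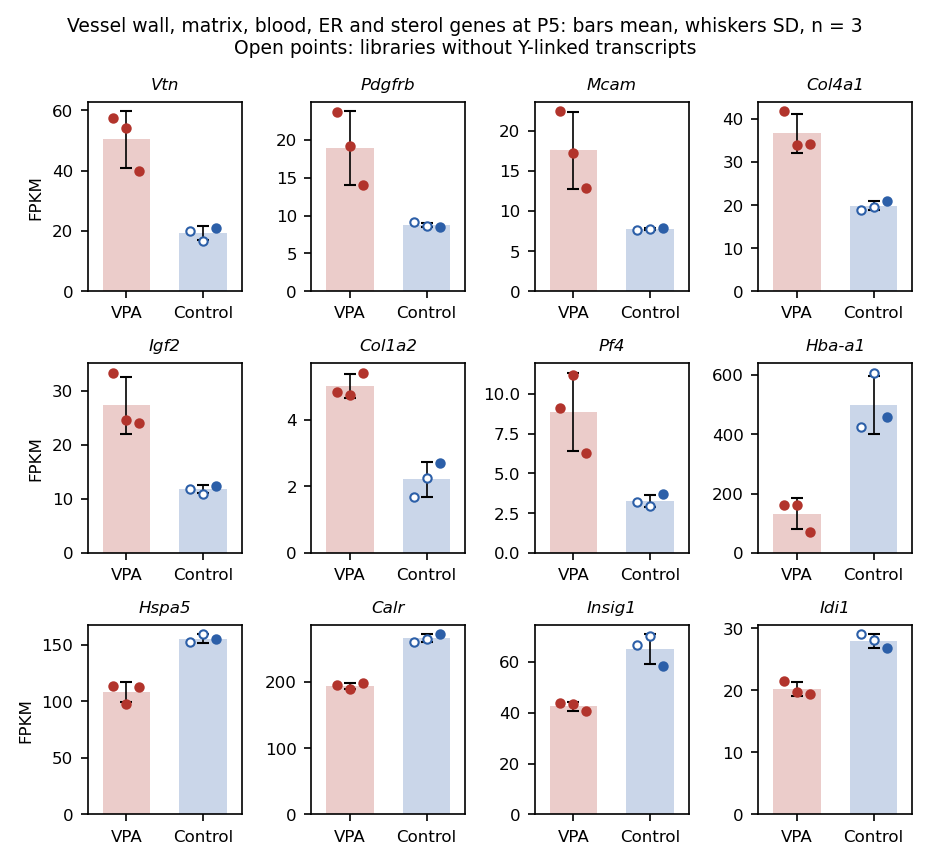
FPKM of 12 genes of other cell types, the ER and sterol synthesis in each library (y axis, linear from 0), VPA_P5 left of Control_P5, with bars at the group means, whiskers of 1 SD (n = 3) and open points for the libraries without Y-linked transcripts. Vtn, Pdgfrb, Mcam, Col4a1, Igf2, Col1a2 and Pf4 are higher in every VPA library, and Hba-a1, Hspa5, Calr, Insig1 and Idi1 are lower in every VPA library.

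Basal lamina and matrix genes rose in part, 6 of 22 tested being past the threshold upward and none downward (26 listed, median 0.21). Of the 22, 16 were higher and 6 lower, and the summed levels overlapped, at 543 to 579 FPKM in VPA and 518 to 558 FPKM in Control libraries. Col4a1, a chain of the collagen IV network under vessels (Ensembl ENSMUSG00000031502.11, chromosome 8, 11198423 to 11312826, mm10), had 41.8, 33.9 and 34.1 FPKM in VPA libraries, against 18.9, 19.6 and 21.04 FPKM in Control libraries (limma log2 change 0.85, SE 0.0903, adjusted p = 0.0133). Col4a2, its partner chain from the adjoining gene, had 20.7, 19.2 and 16.2 FPKM in VPA libraries, against 10.1, 10.7 and 11.2 FPKM in Control libraries (log2 change 0.75, adjusted p = 0.0195). Every VPA library was above every Control library in both. Bgn, a small proteoglycan, Lamb1, a laminin chain, Eln, elastin, and Col18a1, the parent of endostatin, rose by 0.77, 0.41, 0.57 and 0.52 on the log2 scale (adjusted p 0.0313, 0.0365, 0.0411 and 0.0418). Among 17 secreted proteases and inhibitors, Timp2, an inhibitor of matrix metalloproteinases, rose, with 65.6, 72.6 and 74.4 FPKM in VPA libraries, against 47.6, 50.7 and 54.4 FPKM in Control libraries (log2 change 0.47, adjusted p = 0.0325). Adamts1, an inducible protease that cleaves proteoglycans, fell, with 5.81, 5.998 and 8.06 FPKM in VPA libraries, against 18.4, 21.9 and 20.7 FPKM in Control libraries (limma log2 change -1.50, SE 0.123, adjusted p = 0.00467). Sod3, the extracellular superoxide dismutase, had 9.91, 8.46 and 5.41 FPKM in VPA libraries, against 3.48, 2.32 and 2.55 FPKM in Control libraries (log2 change 1.21, adjusted p = 0.0412) and rose. The matrix calls numbered 1 without VPA replicate 2, 2 without VPA replicate 3 and 0 without Control replicate 1 or Control replicate 2.

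A few further genes stood out from lists that were otherwise quiet. Irf1, a factor induced by interferon and cytokines, had 8.83, 9.11 and 9.62 FPKM in VPA libraries, against 18.96, 21.8 and 18.6 FPKM in Control libraries (limma log2 change -1.03, SE 0.0774, adjusted p = 0.00433). Socs3, a feedback inhibitor of cytokine receptors, had 14.7, 18.02 and 20.02 FPKM in VPA libraries, against 31.9, 40.8 and 31.9 FPKM in Control libraries (log2 change -0.95, adjusted p = 0.0282). Both fell, 1 call being left without VPA replicate 2, Control replicate 1 or Control replicate 2, and the other 13 genes of the interferon list did not pass. Cirbp, an RNA-binding protein induced by cold, had 238, 269 and 235 FPKM in VPA libraries, against 174, 147 and 179 FPKM in Control libraries and rose (log2 change 0.57, adjusted p = 0.0354), while Tra2a, a splicing regulator, fell (log2 change -0.31, adjusted p = 0.0442), out of 20 splicing and RNA-binding genes. In the imprinted list Igf2 was the 1 call in 16. None of 29 ribosomal protein genes, 22 respiratory chain genes, 17 glycolysis and hypoxia genes, 17 fatty acid genes, 16 oligodendrocyte precursor genes or 9 myelin genes passed. Of the 15 largest rises, 6 are on no list. Zdhhc22, a member of the DHHC protein acyltransferases, had 4.69, 4.9995 and 6.57 FPKM in VPA libraries, against 2.83, 1.45 and 1.97 FPKM in Control libraries (log2 change 1.07, adjusted p = 0.0413). Eva1b had 6.80, 5.61 and 3.57 FPKM in VPA libraries, against 2.21, 2.11 and 1.94 FPKM in Control libraries (log2 change 1.0001, adjusted p = 0.0484). Npcd had 10.3, 15.3 and 14.7 FPKM in VPA libraries, against 7.09, 4.69 and 7.02 FPKM in Control libraries (log2 change 0.99, adjusted p = 0.0472), and it overlaps Nptxr and Cbx6, so that its fragments may be shared with them. The groups did not overlap in these genes. The others were Pltp, a phospholipid transfer protein, Gja4, the arterial gap junction protein connexin 37, and Cd248, a mural and fibroblast membrane protein, with log2 fold changes of 0.98, adjusted p = 0.0136 for Pltp, 0.92, adjusted p = 0.0356 for Gja4, and 0.92, adjusted p = 0.0418 for Cd248.

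Genes for small RNAs gave the largest fitted changes. Libraries were made from polyadenylated RNA, so short mature miRNAs are not expected among the fragments, and an FPKM over a hairpin of 63 to 123 bases, the lengths of the 6 called here, can rest on few fragments. Some widely used genes, among them Rpl26 and Eno1, are also listed at 0, so a 0 here can be a failed estimate. Of 171 tested small RNA genes 1 rose and 5 fell. Mir6976 was listed at 0 in all 3 VPA libraries and at 186, 495 and 244 FPKM in Control libraries. Mir3060 was likewise listed at 0 in the VPA libraries, and at 96.8, 86.0 and 56.6 FPKM in Control libraries. Mir344-2 was listed at 0 in the VPA libraries and at 37.0, 49.3 and 64.9 FPKM in Control libraries. All 3 are thus split by group, but they entered the test only through the Control libraries, so the filter itself left no room for overlap. Mir27b, named after its values were seen, was listed at 0 in the VPA libraries and at 9.15, 31.2 and 66.8 FPKM in Control libraries. Mir7006 showed the opposite split, with 523, 58.0 and 133 FPKM in VPA libraries and 0 in all Control libraries. Mir27b likewise entered the test only through the Control libraries, and Mir7006 only through the VPA libraries. Mir6236, also named after its values were seen, had 274, 349.9 and 298 FPKM in VPA libraries, against 696, 469 and 563 FPKM in Control libraries (log2 change -0.89, adjusted p = 0.0411).

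The mature forms encoded by these hairpins, from RefSeq (GRCm38.p6), are given 5′ to 3′ with the seed, bases 2 to 8, which pairs with target mRNAs, in capitals.
mmu-miR-6976-5p: cAGGGAAGuugagaggaaaauug
mmu-miR-6976-3p: aUCUCCCUcccaacuccccag
mmu-miR-3060-5p: gGGAGUGCuucgugcuucug
mmu-miR-3060-3p: cCAUAGCAcagaagcacuccca
mmu-miR-344-5p: aGUCAGGCuccuggcuagauuccagg
mmu-miR-344-3p: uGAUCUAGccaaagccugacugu
mmu-miR-27b-5p: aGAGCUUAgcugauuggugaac
mmu-miR-27b-3p: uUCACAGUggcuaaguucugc
mmu-miR-7006-3p: uUUCUGACcuggauccccag
The 9 sequences carry 9 distinct seeds, so no seed family is shared. Mir6976 lies at chromosome 17, 46553827 to 46553889, in an intron of Srf on the same strand, and Srf itself fell, as given with the SRF targets. Mir3060 lies at chromosome 11, 4139364 to 4139446, in an intron of Rnf215 on the same strand, and Rnf215 had 35.2, 42.1 and 39.7 FPKM in VPA libraries, against 38.8, 38.6 and 37.3 FPKM in Control libraries (log2 change 0.02, adjusted p = 0.864), with overlapping groups. Mir344-2 lies in an intron of A330076H08Rik, and Mir27b overlaps an exon of 2010111I01Rik, both on the same strand, and neither host passed (adjusted p = 0.34 and 0.30). Whether the fragments counted came from the hairpins or from unspliced host RNA was not tested.

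The effect of VPA at P5 was set against that at 2 other ages by testing the difference between the effects over 12 libraries each, GFP-positive cells of the embryonic day 15 (E15) forebrain and of the dentate gyrus at 12 weeks. The tissue at E15 differs as well as the age, and Ddx3y was near 0 in 1 VPA and 1 Control library at E15 and above 6 FPKM in every 12-week library fitted. Every 12-week library fitted also held Xist, at 52.9 to 175 FPKM, a level that only Control replicates 1 and 2 reached at P5. The mix of sex-linked transcripts therefore differed between P5 and 12 weeks. Both tests share the P5 libraries. The VPA effect at P5 differed from that at E15 for 157 of 13722 genes (1.14%), lying above it for 51 (0.372%) and below it for 106 (0.772%), and from that at 12 weeks for 75 of 14200 (0.528%), above for 37 (0.261%) and below for 38 (0.268%). Of the 298 genes called at P5, 91 differed from E15 (25 that rose and 66 that fell) and 36 differed from 12 weeks (13 and 23). The genes that fell at P5 had a median log2 change of 0.08 at E15 and 0.07 at 12 weeks, and those that rose had 0.00 and -0.38. Within E15 and within 12 weeks, the same test called 5 of 12345 genes (0.0405%) and 1 of 13422 (0.00745%). Leaving out 1 P5 library gave 5 (without Control replicate 1) to 66 genes above and 26 (without Control replicate 2) to 130 below against E15, and 7 (without VPA replicate 2 or Control replicate 1) to 15 above and 9 (without Control replicate 2) to 19 below against 12 weeks. With all 21 libraries in 1 fit, the P5 comparison itself called 2 rises and 13 falls.

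The immediate early genes made up 20 of the 157 genes that differed from E15 and 12 of the 75 that differed from 12 weeks. Thus 20 of 49 fitted members differed between P5 and E15 and 12 of 50 between P5 and 12 weeks, and their median change was 0.25 at E15 and 0.22 at 12 weeks. Fos had 17.6 ± 5.07 FPKM in VPA and 10.1 ± 3.68 FPKM in Control libraries at E15 (SD, n = 3 each), a log2 change of 0.75 at E15, difference -2.62, adjusted p = 0.00919. At 12 weeks Fos had 799 ± 84.3 FPKM in VPA and 539 ± 101 FPKM in Control libraries (SD, n = 3 each), a log2 change of 0.58 at 12 weeks, difference -2.45, adjusted p = 0.00165. The Fos change at P5 thus lay below that at both other ages. The same held for Btg2 (0.45 at E15, difference -1.53, adjusted p = 0.00919, and 0.04 at 12 weeks, difference -1.12, adjusted p = 0.0356) and for Ier2 (0.19 at E15, difference -1.35, adjusted p = 0.0151, and 0.09 at 12 weeks, difference -1.24, adjusted p = 0.0123). These tests compare the effects between ages and do not show that VPA raised a gene at E15 or at 12 weeks. For Egr1 the difference passed against 12 weeks (0.18 at 12 weeks, difference -1.65, adjusted p = 0.0112) and not against E15 (0.23 at E15, difference -1.70, adjusted p = 0.061).

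Among the vessel-related lists, 4 of 17 pericyte genes, 2 of 13 fibroblast genes and 4 of 22 matrix genes differed from E15, beside 1.14% of all genes fitted. From 12 weeks 2 of 18, 1 of 15 and 1 of 25 differed, beside 0.528% of all genes fitted. Mcam and Col1a2 passed against neither age, and Pdgfrb passed against E15 (-0.12 at E15, difference 1.12, adjusted p = 0.0342) and not against 12 weeks (-0.90 at 12 weeks, difference 1.90, adjusted p = 0.0571). Vtn gave -0.06 at E15, difference 1.40, adjusted p = 0.0388, and -0.98 at 12 weeks, difference 2.31, adjusted p = 0.0346. Col4a1 gave -0.36 at E15, difference 1.21, adjusted p = 0.00611, and -0.49 at 12 weeks, difference 1.34, adjusted p = 0.0173. Both genes were lower after VPA at 12 weeks, and the 18 pericyte genes fitted there had a median change of -0.65, with 1 higher. Notum gave -0.02 at E15, difference 1.26, adjusted p = 0.0151, and -1.10 at 12 weeks, difference 2.34, adjusted p = 0.0346. Rgs4 gave -0.05 at E15, difference 1.23, adjusted p = 0.0332, and -0.47 at 12 weeks, difference 1.65, adjusted p = 0.0274. All 4 genes had a negative log2 change after VPA at both other ages, with E15 values between -0.36 and -0.02. For Igf2 the effect was positive at E15 too, and the difference did not pass (0.79 at E15, difference 0.35, adjusted p = 0.911). Of 23 ER chaperone genes 1 differed from E15, Hyou1, an ER chaperone named after its values were seen (0.08 at E15, difference -0.41, adjusted p = 0.0473). Hspa5 passed against neither age, with 0.15 at E15, difference -0.68, adjusted p = 0.185, and 0.29 at 12 weeks, difference -0.82, adjusted p = 0.547. For Sox2, which passed against neither, the values were 0.30 at E15, difference -0.66, adjusted p = 0.227, and 0.13 at 12 weeks, difference -0.49, adjusted p = 0.464. Insig1 differed from E15 (0.06 at E15, difference -0.65, adjusted p = 0.0214) and not past the threshold from 12 weeks (0.24 at 12 weeks, difference -0.84, adjusted p = 0.163). Hba-a1 was lower after VPA at 12 weeks as well (-3.20 at 12 weeks, difference 1.22, adjusted p = 0.904).

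**Figure D5:**
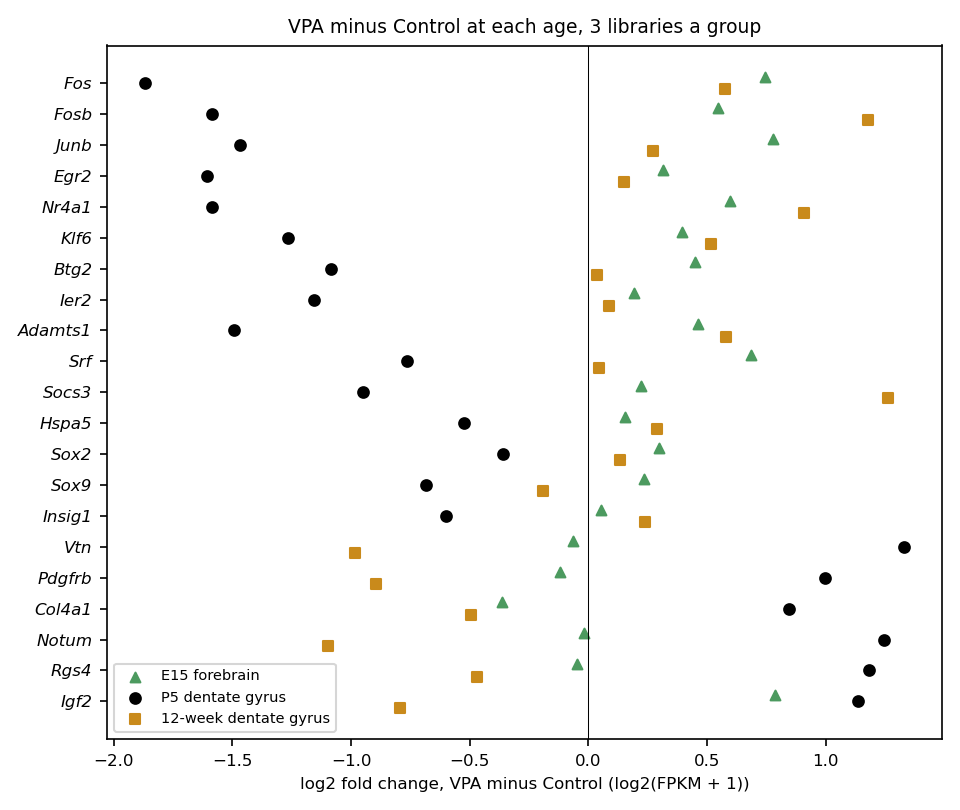
Log2 fold change of VPA over Control (x axis) for 21 genes at E15 in forebrain (triangles), at P5 in dentate gyrus (circles) and at 12 weeks in dentate gyrus (squares). The P5 circles of the immediate early genes lie left of 0, at -1.87 for Fos, while their triangles and squares lie near or right of 0, at 0.75 and 0.58 for Fos.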

How the data were processed

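The data are FPKM tables, 1 per library, that the authors deposited. Per the submitters' processing notes, reads were handled with TopHat, Bowtie2, Cufflinks and Cuffdiff on mm10; their versions and whether strand was used are not given in the sources used here, so reads of overlapping or antisense genes cannot be told apart. The headers of the P5 tables name only the sample, and the FPKM unit was taken from the headers of the 12-week tables and from the sums of the values (475775 to 492041 per P5 library). Per the labels' protocols, libraries were made from polyadenylated RNA of sorted cells.

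VPA_P5 (3 libraries) was compared with Control_P5 (3 libraries) on log2(FPKM + 1) with limma 3.58.1 in R 4.3.3 (empirical Bayes with a trend), after requiring 1 FPKM in 3 of the 6 libraries, with Benjamini-Hochberg adjustment over all 13328 genes and a threshold of 0.05. Fold changes on this scale understate those of low genes. Differences between ages were tested as an interaction over 12 libraries. The procedure was tested on simulated data. Relative depth was estimated from the spacing of low values, and no read counts were used. Symbols were matched to GENCODE release M21, 23185 of 24322 to a single gene.

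The genes named are the 15 largest rises and falls that reach 5 FPKM without overlap, up to 6 called members per direction and up to 3 near misses of each of 54 gene lists, 5 markers, the 10 smallest adjusted p-values and up to 4 small RNAs; others are said to be named after their values were seen, 1 gene that the rule names is not reported here, and of the near misses only some are given, picked with their values known. The members, lists and comparisons were chosen with earlier results of these data known. Alternatives were another pseudocount, filter or scaling, a replicate block, no trend, array weights, all 21 libraries and leaving out each library; the Ddx3y covariate, the Y-linked libraries alone and leaving out small RNA genes were added after the data were seen. Replicate numbers did not pair the libraries (correlation of deviations 0.0943, 0.0441 and 0.0132 for numbers 1 to 3).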

Additional observations from a re-analysis of the deposited data

Results flagged for a closer look

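These results stand here because the test of the difference between ages, the limma interaction of VPA with age, passed at an adjusted p of at most 0.05. Each value is the VPA effect at P5 minus the VPA effect at the other age, on the log2(FPKM + 1) scale, over 12 libraries, so a negative value means that the P5 effect was the lower one. All genes named here had been chosen at P5, and both comparisons share the P5 libraries.

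Among the AP-1 genes, the difference from E15 was -2.62 for Fos, -2.13 for Fosb, -2.25 for Junb, -1.46 for Jun, -1.62 for Maff and -1.97 for Atf3. Against 12 weeks it was -2.45 for Fos, -2.77 for Fosb, -1.74 for Junb and -1.89 for Jun. Among the Egr and Nr4a genes, the difference from E15 was -1.92 for Egr2, -2.20 for Egr3, -2.18 for Nr4a1 and -1.61 for Nr4a2. At 12 weeks the comparison gave -1.65 for Egr1, -1.76 for Egr2 and -2.49 for Nr4a1. Among the growth-arrest and mRNA-decay group, the difference from E15 was -1.29 for Cebpd, -1.53 for Btg2, -1.35 for Ier2, -1.66 for Klf6, -1.68 for Klf4 and -1.24 for Nfkbiz. Against 12 weeks it was -1.12 for Btg2, -1.24 for Ier2, -1.78 for Klf6 and -1.79 for Klf4. Among the MAP kinase feedback genes and Srf, the difference from E15 was -1.31 for Spry2, -1.26 for Dusp10, -0.65 for Dusp4, -1.01 for Dusp1 and -1.45 for Srf. Among the stress, clock and cytokine genes, the difference from E15 was -0.79 for Atf4, -1.85 for Bhlhe40, -1.51 for Irf1, -1.17 for Socs3, -0.85 for Skil and -1.96 for Adamts1. For 12 weeks the value was -0.92 for Atf4, -1.58 for Bhlhe40, -2.21 for Socs3 and -2.08 for Adamts1. Among the sterol genes, the difference from E15 was -0.65 for Insig1 and -0.47 for Idi1. For the ER chaperone Hyou1, named after its values were seen, it was -0.41. Among the mural, macrophage and fibroblast genes, the difference from E15 was 1.40 for Vtn, 1.12 for Pdgfrb, 1.18 for Gja4, 1.28 for Cd248, 1.29 for Pf4, 1.10 for Col3a1 and 0.89 for Foxc1. Against 12 weeks it was 2.31 for Vtn, 1.99 for Islr and 2.75 for Pltp. Among the matrix genes, the difference from E15 was 1.21 for Col4a1, 1.08 for Col4a2, 1.23 for Bgn and 0.62 for Lamb1. Set against 12 weeks, it came to 1.34 for Col4a1. Among the genes of the Wnt list and other single genes, the difference from E15 was 1.26 for Notum, 1.23 for Rgs4 and 0.69 for Cirbp. Against 12 weeks it was 2.34 for Notum, 1.25 for Dkk3 and 1.65 for Rgs4. Among the small RNA genes, the difference from E15 was -6.30 for Mir3060, -8.15 for Mir6976 and 7.59 for Mir7006. At 12 weeks the comparison gave -6.30 for Mir3060, -5.65 for Mir344-2, -8.15 for Mir6976 and 7.33 for Mir7006. The small RNA values are fitted differences that depend on the pseudocount, since at least 1 group is listed at 0 at P5, and they are no measure of a fold change. Mir6976 and Mir3060 were listed at 0 in every library of both other ages.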

How the results depend on the processing

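Of 244 named genes, 87 were past the threshold, and none of these changed direction under any alternative that could be fitted. In the fits that only left libraries out, the direction was fixed beforehand, since the groups of all 298 called genes did not overlap. The counts past the threshold (120 rose and 178 fell, 25 and 63 among list members) stayed within 1.5 times under a pseudocount of 0.1, median-of-ratios scaling, quantile normalization and no trend. A filter at 5 FPKM gave 69 rises. Without a filter 5 genes rose and 31 fell (1 and 21 among list members). With array quality weights 607 rose and 606 fell (87 and 137). With all 21 libraries in the fit 2 rose and 13 fell (1 and 10). With the Ddx3y level as a covariate 3 rose and 7 fell (0 and 3), and in the 4 libraries with Y-linked transcripts 1 rose and 4 fell (0 and 0), with 1689 and 1317 genes at an unadjusted p under 0.05 in limma, against 3193 with all 6 libraries. With small RNA genes left out and the libraries rescaled to equal sums of the rest, 395 rose and 361 fell (68 and 112). Leaving out 1 library each time gave 1 to 273 rises and 17 to 295 falls (0 to 41 and 15 to 94 among list members). The causes were not tested, apart from the loss of libraries where libraries were left out.

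A replicate block gave 20 rises and 50 falls (7 and 30 among list members), 62 of the 298 genes being called again. The numbers did not pair the libraries: VPA replicates 1 and 2 correlated best with their own number, VPA replicate 3 with Control replicate 2. In the comparison with E15 (51 genes above and 106 below), a replicate block within age gave 1 above and 16 below. In the comparison with 12 weeks (37 above and 38 below) it gave 0 and 5. All 21 libraries in the fit gave 2 above and 12 below against E15, and 21 above against 12 weeks. Leaving out 1 library gave 5 to 66 above and 26 to 130 below against E15, and 7 to 15 above and 9 to 19 below against 12 weeks.

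The limits are 3 libraries per group, Control libraries of mixed sex-linked expression against VPA libraries that all held Y-linked transcripts, FPKM in place of counts, which leaves the precision of low values unknown, and replicates of unstated origin. In bulk cells, cell share and level per cell cannot be told apart.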

Other observations

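Of the 298 genes called at P5, 210 were on no list, and the genes of this paragraph and the next were picked from them after their values were seen. Ppp1r10, a nuclear regulator of protein phosphatase 1, had 23.7, 22.1 and 24.03 FPKM in VPA libraries, against 39.1, 43.6 and 39.2 FPKM in Control libraries (log2 change -0.78, adjusted p = 0.00464). Gem, a small GTPase that restrains calcium channels, had 9.08, 8.35 and 7.08 FPKM in VPA libraries, against 15.8, 15.6 and 17.5 FPKM in Control libraries (log2 change -0.92, adjusted p = 0.0124). Its relative Rem2 had 6.02, 5.91 and 7.25 FPKM in VPA libraries, against 11.4, 8.84 and 11.9 FPKM in Control libraries (log2 change -0.66, adjusted p = 0.0484). The groups did not overlap in any of these genes. Ppp1r15a, which reverses the translational block of the integrated stress response, had 14.7, 16.8 and 17.8 FPKM in VPA libraries, against 25.4, 25.8 and 24.2 FPKM in Control libraries (log2 change -0.59, adjusted p = 0.0218). Tob1, an antiproliferative relative of Btg2, had 34.9, 35.3 and 35.03 FPKM in VPA libraries, against 50.5, 47.7 and 51.6 FPKM in Control libraries (log2 change -0.50, adjusted p = 0.00922). Dio2, the enzyme that activates thyroid hormone in brain, had 14.1, 14.99 and 13.1 FPKM in VPA libraries, against 26.1, 25.1 and 22.4 FPKM in Control libraries (log2 change -0.76, adjusted p = 0.011), and Irs2, an adaptor of insulin and IGF receptors, had 9.18, 9.64 and 10.7 FPKM in VPA libraries, against 16.4, 18.99 and 15.1 FPKM in Control libraries (log2 change -0.71, adjusted p = 0.0251). Dio2 and Irs2 were lower in every VPA library, with log2 fold changes of -0.64 and -0.57 in the 4 libraries with Y-linked transcripts.

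Among those that rose, Slc6a20a, an amino acid transporter, had 5.28, 3.44 and 3.60 FPKM in VPA libraries, against 1.44, 0.844 and 1.20 FPKM in Control libraries (log2 change 1.23, adjusted p = 0.0272). Tbxa2r, the thromboxane receptor of smooth muscle and platelets, had 5.78, 4.43 and 3.46 FPKM in VPA libraries, against 1.85, 1.004 and 1.27 FPKM in Control libraries (log2 change 1.22, adjusted p = 0.0341). In both genes VPA replicate 1 was the highest library, as it was for Vtn, Pdgfrb and Mcam. Postn, a secreted matrix protein of fibroblasts, had 4.17, 2.83 and 2.30 FPKM in VPA libraries, against 0.994, 0.936 and 1.24 FPKM in Control libraries (log2 change 0.97, adjusted p = 0.0433). Apod, an apolipoprotein made by glia and fibroblasts, had 4.16, 2.76 and 3.21 FPKM in VPA libraries, against 1.05, 1.14 and 1.38 FPKM in Control libraries (log2 change 0.99, adjusted p = 0.0286).

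Kdm6a, an X-linked gene that escapes X inactivation, had 10.7, 10.7 and 10.3 FPKM in VPA libraries, against 17.5, 18.3 and 11.2 FPKM in Control libraries (log2 change -0.50, adjusted p = 0.135). The value of Control replicate 3 lay beside the VPA libraries, and those of Control replicates 1 and 2, the Xist-high libraries, lay above.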
